A study of Mus musculus with 4 samples.

Results

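The respiratory chain was described here through 95 of the 52636 gene identifiers counted in sorted mouse kidney cells: 13 protein genes of the mitochondrial genome and 82 nuclear genes. The members were protein-coding genes chosen by symbol. They began with mt-Nd, mt-Co, mt-Cytb or mt-Atp in the mitochondrial genome, and in the nucleus were the numbered Nduf subunits, Sdha to Sdhd, the Uqcr genes, the numbered and lettered Cox subunits, and the Atp5 genes. Pseudogenes and assembly factors were left out. The symbol rule also left out Cox4i1, Cox4i2, Cyc1, Ndufab1 and Cycs, whose values are given beside the members.

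The respiratory chain is a series of protein complexes in the inner mitochondrial membrane. Complexes I and II pass electrons from NADH and succinate to ubiquinone, complex III passes them on to cytochrome c, complex IV passes them to oxygen, and complex V, the ATP synthase, makes ATP from the proton gradient. Complexes I, III, IV and V are built from subunits of both genomes and complex II from nuclear subunits alone. The mitochondrial messages are cut from long transcripts of both strands, so their levels are not independent of each other. In the kidney the adult proximal tubule and thick ascending limb are known for dense mitochondria, while nephron progenitors are known for a larger part of glycolysis.

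Bulk RNA was compared between 2 control libraries and 2 Brg1-cKO libraries, each from 3000 cells sorted from kidney. Brg1, encoded by Smarca4, is the ATPase of the SWI/SNF chromatin remodelling complex, and cKO stands for conditional knockout. The labels gave no Cre driver, allele, strain, age or sorting marker for either group and did not say what the controls carried or whether cells of several animals were pooled. They did not say either that the replicates came from separate animals, so a p-value here measures the spread between libraries, which may be technical. In bulk RNA, fewer cells of a type and less RNA per cell cannot be told apart.

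The groups differed in facts that touch every value below. Gene counts were 35411905 and 37999342 in the controls, against 14645665 and 10922272 in the Brg1-cKO pair. Reads aligned once but outside counted genes made up 16.5% and 15.4% of uniquely aligned reads in the controls against 49.5% and 57.2%. Reads that did not align made up 6.32% and 6.69% against 21.3% and 25.5%. Levels are given as CPM, the counts of a gene relative to the library size scaled by TMM. The targeted gene Smarca4 was at 898 and 937 CPM in the controls, against 760 and 691 CPM in the Brg1-cKO pair. It had a log2 fold change of -0.34 (SE 0.09), and its Benjamini-Hochberg adjusted p was 0.167 by the edgeR quasi-likelihood test. Xist stood at 244 and 217 CPM against 836 and 1205 CPM and the Y-linked gene Ddx3y at 76.0 and 78.8 CPM against 1.05 and 3.27 CPM, so the mix of male and female cells differed between the groups. The parts of depth, read placement and sex in the results below were not tested.

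The 7 well counted mitochondrial messages were above both controls in each Brg1-cKO library, by 1.30 to 1.57 times of gene counts, although their share of all uniquely aligned reads was lower there, while the nuclear members had no common direction. mt-Nd4 and mt-Nd2, core subunits of complex I, had the largest differences among these 7. No member passed an adjusted p of 0.05. The median log2 fold change was 0.41 over the 13 mitochondrial members and -0.07 over the 77 nuclear members tested, beside -0.06 over all 18172 genes tested.

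mt-Nd4 stood at 1705 and 1611 CPM in the controls and at 2473 and 2734 CPM in the Brg1-cKO pair. Its log2 fold change was 0.65 (SE 0.08). mt-Nd2 was at 1788 and 1698 CPM in the controls and at 2411 and 2911 CPM in the Brg1-cKO pair, a log2 fold change of 0.61 (SE 0.11). In both genes the lower Brg1-cKO library lay above the higher control.

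mt-Nd5 was at 4112 and 3891 CPM against 5077 and 6075 CPM (log2 fold change 0.48, SE 0.11). mt-Nd1 was at 3966 and 3623 CPM against 4729 and 5300.5 CPM (0.40, SE 0.09). mt-Nd6 was at 1149 and 1050.1 CPM against 1434 and 1432 CPM (0.38, SE 0.08). All 3 encode membrane subunits of complex I, and mt-Nd6 is the member read from the opposite strand of the mitochondrial genome. Its gene overlaps the end of mt-Nd5.

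mt-Cytb, the cytochrome b of complex III, was at 5888 and 5317 CPM in the controls and at 7070.4 and 8385 CPM in the Brg1-cKO pair. The log2 fold change was 0.46 (SE 0.11). mt-Co1, the catalytic subunit of complex IV, was at 4194 and 3964 CPM against 4911 and 5947 CPM, and its log2 fold change was 0.41 (SE 0.11). In 6 of these 7 genes the second Brg1-cKO library was the higher of its pair, with mt-Nd6 level in both.

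In edgeR's quasi-likelihood test the unadjusted p of the 7 genes ran from 0.00137 for mt-Nd4 to 0.0217 for mt-Co1. The Benjamini-Hochberg adjusted p was 0.166 for 6 of them and 0.174 for mt-Co1, and 0.166 was also the smallest adjusted p of any gene tested. Of all 18172 genes, 0% passed 0.05 after adjustment, 5.44% were higher at an unadjusted p under 0.05 and 12.9% were lower. All 7 well counted mitochondrial members were among the higher ones at that unadjusted threshold, no mitochondrial member was among the lower ones, and the nuclear members gave 0 higher and 5 lower of 77, which were Ndufs7, Ndufa4l2, Cox6a1, Cox7a1 and Atp5g1. Ndufa4l2 and Cox7a1 had 0 counts in the Brg1-cKO pair and passed the filter on low counts through the controls alone, so their direction was fixed by that filter and they support no count of lower members. DESeq2 with its own size factors called 12 members at an adjusted p under 0.05 and limma-voom 2, where DESeq2 called 10.8% of all genes and limma-voom 1.8%. The 12 were the 7 mitochondrial genes and Ndufs1, higher, and Atp5g1, Cox6a1, Ndufa4l2 and Ndufs7, lower, and the 2 were mt-Nd4, higher, and Ndufa4l2, lower. With 1 Brg1-cKO library left out, edgeR called 53 members (55.5% of all genes) without the first and 58 (60.6%) without the second, and with 1 control left out 0 members (0.0818% and 0.0817% of all genes). With the replicate number as a block it called 6 members, beside 0.858% of all genes.

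**Figure D1:**
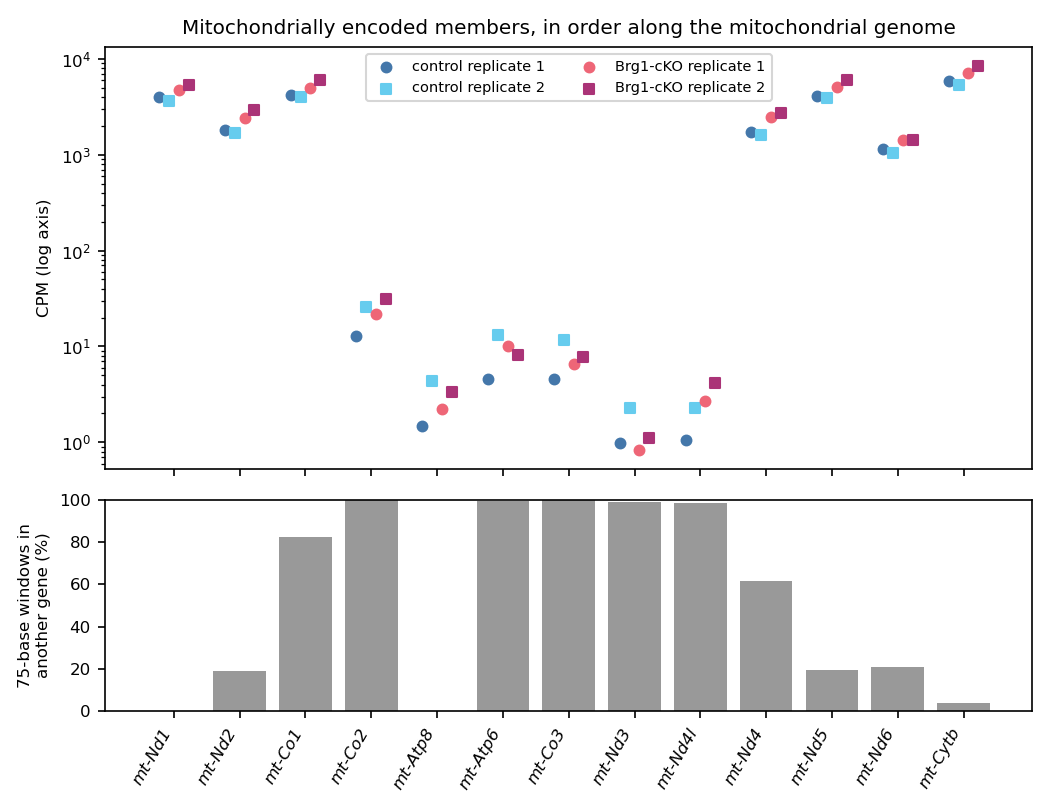
CPM of the mitochondrially encoded members in each library, on a log axis, in order along the mitochondrial genome, with the percent of 75-base windows shared with another gene below. The 7 genes above 1000 CPM had both Brg1-cKO points above both control points of gene counts, and the other 6 lay below 31 CPM in every library.

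The other 6 mitochondrial members, mt-Co2, mt-Co3, mt-Atp6, mt-Atp8, mt-Nd3 and mt-Nd4l, were counted at levels too low to describe. mt-Co2, which holds the copper centre that takes electrons from cytochrome c, was the highest of them at 12.8 and 25.6 CPM in the controls and 21.9 and 30.9 CPM in the Brg1-cKO pair. mt-Co3, also of complex IV, was at 4.58 and 11.6 CPM against 6.57 and 7.85 CPM. The ATP synthase subunits mt-Atp6 and mt-Atp8 were at 4.53 and 13.1 CPM against 10.2 and 8.13 CPM, and at 1.48 and 4.36 CPM against 2.24 and 3.36 CPM. All 6 were lower in the first control than in the second, by at least 0.998 on the log2 scale, which was more than the gap between the Brg1-cKO libraries in any of them.

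mt-Nd3 was at 0.978 and 2.26 CPM against 0.839 and 1.12 CPM, and mt-Nd4l at 1.06 and 2.26 CPM against 2.73 and 4.20 CPM. mt-Nd4l was the 1 gene of the 6 whose groups did not overlap, with 2.73 CPM against 2.26 CPM at the edge. The log2 fold changes of the 6 ran from -0.72 for mt-Nd3 to 1.06 for mt-Nd4l with a median of -0.00, and the smallest unadjusted p was 0.427.

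These low genes lie beside each other in the mitochondrial genome, and that stretch is also present in the nuclear genome. On chromosome 1 (mm10, chr1:24611535-24616197, minus strand) 7 pseudogenes follow the order of mt-Co1, mt-Co2, mt-Atp6, mt-Co3, mt-Nd3, mt-Nd4l and mt-Nd4. The copies of mt-Co2, mt-Atp6, mt-Co3 and mt-Nd4l had 0 differences over the aligned bases, and that of mt-Nd3 had 1. Of all windows of 75 bases, the read length, 98.7% to 100% in these 5 genes occurred in a transcript of another gene with at most 2 mismatches. mt-Atp8 had 0% in annotated transcripts, and lies in the 230 bases between mt-Co2 and mt-Atp6 where the chromosome 1 copies are 233 bases apart. The 6 low values are not read as levels of these messages. The part of shared reads in them was not tested, and mt-Atp8 was low with 0% of its windows in another annotated transcript. The copies themselves held few reads, with Gm28661, the copy of mt-Co2, at 2.12 and 3.42 CPM against 1.26 and 6.91 CPM.

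The first 75 bases of mt-Co2 (chrM:7013-7087, mm10) and of its copy Gm28661 (chr1:24615491-24615565, minus strand) are shown because no read from them can be told apart. Below them, 75 bases of mt-Cytb (chrM:14445-14519) stand beside the copy Gm11410 on chromosome 4 (chr4:80004289-80004363, plus strand), with the 8 bases that differ in capitals. Sequences are those of GENCODE M21 transcripts, 5′ to 3′.
mt-Co2: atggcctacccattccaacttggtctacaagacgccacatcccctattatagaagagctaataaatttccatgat
Gm28661: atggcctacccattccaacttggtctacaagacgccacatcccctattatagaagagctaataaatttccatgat
mt-Cytb: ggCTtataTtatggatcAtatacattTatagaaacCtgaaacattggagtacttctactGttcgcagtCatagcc
Gm11410: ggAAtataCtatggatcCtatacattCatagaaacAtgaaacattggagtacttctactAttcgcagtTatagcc
The share of windows found elsewhere was 3.93% for mt-Cytb, 0% for mt-Nd1, and 19.2%, 19.3% and 20.9% for mt-Nd2, mt-Nd5 and mt-Nd6. It was 61.5% for mt-Nd4, whose first 876 bases are identical to Gm28439.

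mt-Co1 shows how a near copy differs from an exact one. Of its windows 82.5% occurred elsewhere with at most 2 mismatches but 39.8% exactly, and it was still counted at 3964 CPM or more in every library. The copy Gm13340 on chromosome 2 (chr2:22589273-22589347, minus strand, for the stretch shown) differs from mt-Co1 (chrM:5628-5702) at the 1 base in capitals.
mt-Co1: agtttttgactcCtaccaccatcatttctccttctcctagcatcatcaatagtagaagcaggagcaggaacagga
Gm13340: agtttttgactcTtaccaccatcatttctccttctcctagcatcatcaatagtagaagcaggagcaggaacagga
Gm13340 was at 7.88 and 11.3 CPM in the controls and at 8.94 and 53.2 CPM in the Brg1-cKO pair. The 53.2 CPM of the second Brg1-cKO library stood beside 5947 CPM of mt-Co1 there.

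Per kilobase of transcript, the order of the well counted mitochondrial messages in the controls was mt-Cytb with 4897 ± 353 CPM per kb (SD, n = 2), mt-Nd1 with 3965 ± 253, mt-Co1 with 2640 ± 105, mt-Nd5 with 2194 ± 85.8, mt-Nd6 with 2119 ± 135, mt-Nd2 with 1679 ± 61.6 and mt-Nd4 with 1203 ± 48.0. mt-Nd5 and mt-Nd6 did not differ beyond their spread. In the Brg1-cKO libraries mt-Cytb was at 6755 ± 812 CPM per kb and mt-Nd4 at 1889 ± 134. The place of mt-Nd4 turned with the measure of length. Per 1000 windows not found elsewhere it was at 3303 CPM in the controls and 5186 in the Brg1-cKO pair, above mt-Nd2, mt-Nd5 and mt-Nd6, and mt-Nd2 was the lowest with 2238 and 3416. mt-Co1 came first on that measure with 15872 and 21125, divided by only 257 windows. The measure leaves out windows found elsewhere with at most 2 mismatches, 82.5% of those of mt-Co1. Only 39.8% were found exactly, so the first place of mt-Co1 rests on that mismatch limit and is not interpreted.

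The share of gene counts on the 13 mitochondrial members was 2.31% and 2.15% in the controls, against 2.75% and 3.22% in the Brg1-cKO pair. The direction of this share depended on the denominator. Of all uniquely aligned reads, the same counts made up 1.84% and 1.74% in the controls, against 1.33% and 1.32% in the Brg1-cKO pair, where 49.5% and 57.2% of those reads lay outside genes. The 95% Wilson score interval of each share of gene counts, which covers counting error only, was widest at 3.21% to 3.23%.

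The nuclear members took 0.711% and 0.714% of gene counts in the controls, against 0.666% and 0.689% in the Brg1-cKO pair. Counts on the mitochondrial members were 3.24 and 3.02 times those on the nuclear members in the controls, against 4.13 and 4.67 times in the Brg1-cKO pair. This ratio does not depend on the scaling of libraries, and its groups did not overlap. The exact two-sided permutation p was 0.333, the smallest that 2 libraries against 2 allow.

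**Figure D2:**
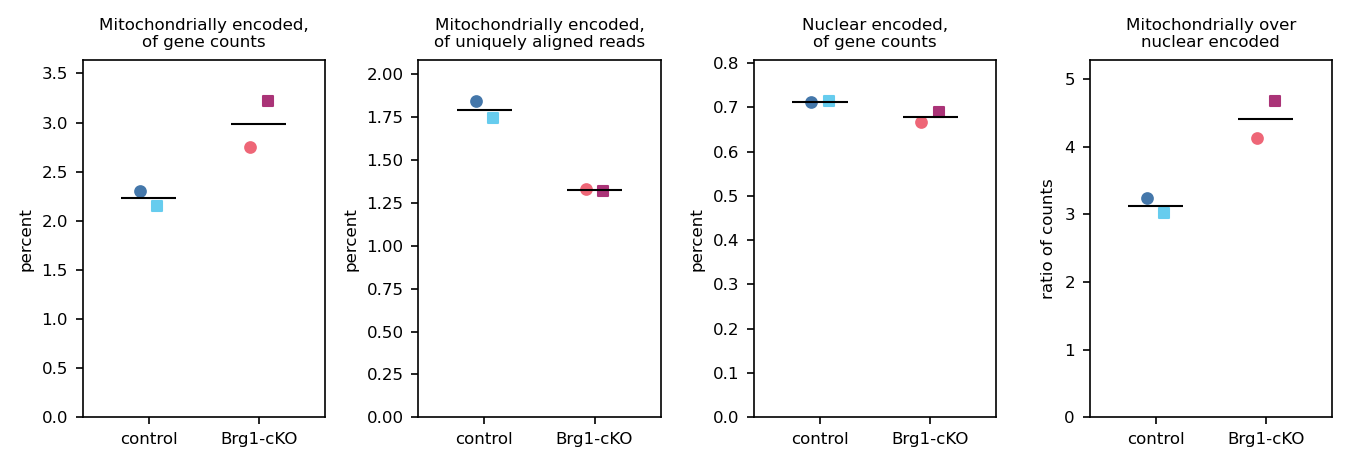
Percent of gene counts and of uniquely aligned reads on mitochondrial members, percent of gene counts on nuclear members, and the ratio of both counts, with 1 point per library (circles are replicate 1, squares replicate 2) and a line at the mean of each group. The mitochondrial share was higher in the Brg1-cKO pair of gene counts (2.75% and 3.22%) and lower of uniquely aligned reads (1.33% and 1.32%), and the ratio was higher at 4.13 and 4.67.

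The 2 mitochondrial ribosomal RNAs, which are not members, also had log2 fold changes above 0. The libraries were made from purified mRNA. mt-Rnr2 was at 1165 and 1093 CPM in the controls and at 2193 and 1596 CPM in the Brg1-cKO pair (log2 fold change 0.75, SE 0.18). mt-Rnr1 was at 259 and 234 CPM against 510 and 321 CPM (0.75, SE 0.26). Unlike 6 of the 7 well counted messages, both were higher in the first Brg1-cKO library than in the second.

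Among the 77 nuclear members tested, both Brg1-cKO libraries lay above both controls in 9 (11.7%) and below both in 23 (29.9%), and the groups overlapped in 45. Of all genes tested, 17.5% lay above and 34.5% below, so the nuclear members were near the background. Among the 13 mitochondrial members 8 (61.5%) lay above and 0 below. The 8 were the 7 well counted genes and mt-Nd4l, which was counted too low to describe. The log2 fold change was above 0 in 30 nuclear members and below 0 in 47 of them. Over all genes tested, the shares were 47% above 0 and 53% below. Ndufa4l2 and Cox7a1, whose direction was fixed by the filter on low counts, are among both the 23 and the 47 nuclear members. Of all genes tested, 1527 had 0 counts in both Brg1-cKO libraries.

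**Figure D3:**
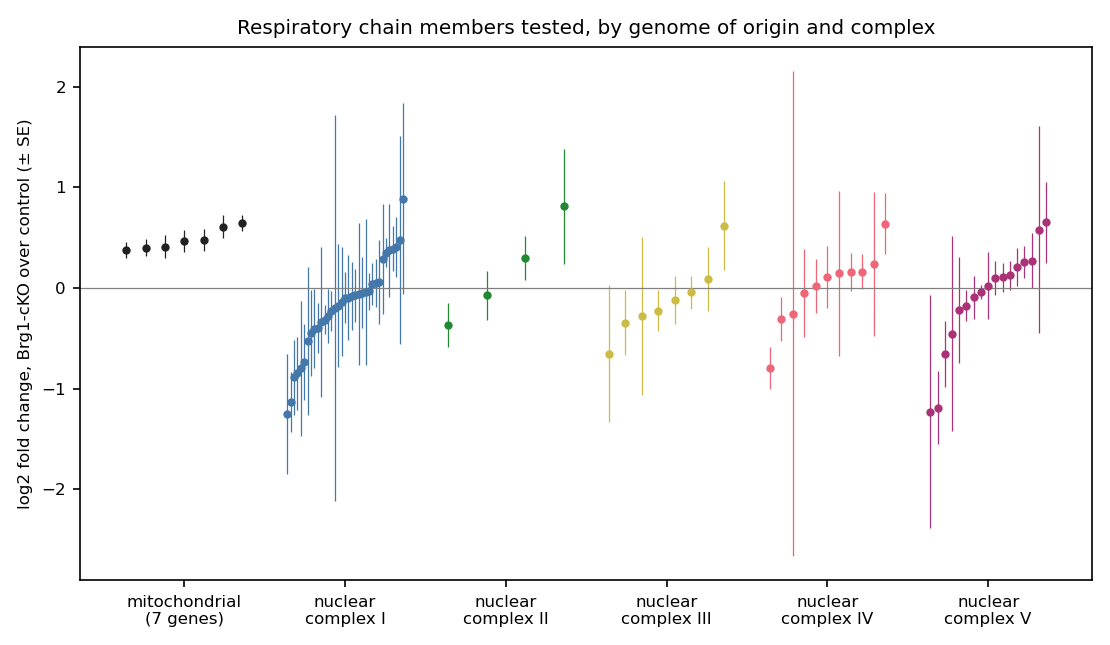
Log2 fold change (Brg1-cKO over control) of tested members with its standard error, grouped by genome and complex. The 6 low mitochondrial genes are not drawn, nor are Ndufa4l2 and Cox7a1, which had 0 counts in the Brg1-cKO pair. The 7 well counted mitochondrial genes lay between 0.38 and 0.65, and the nuclear members lay on both sides of 0.

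Of the 37 nuclear members of complex I, 36 were tested, with a median log2 fold change of -0.11. 10 had a log2 fold change above 0 and 26 below 0, among them Ndufa4l2, whose direction the filter fixed. Over all genes tested, 53% were below 0. Ndufs7, a core subunit with an iron-sulfur cluster, was at 53.6 and 57.7 CPM in the controls and at 28.2 and 22.5 CPM in the Brg1-cKO pair. Its log2 fold change was -1.13 (SE 0.29, unadjusted p 0.0176, Benjamini-Hochberg adjusted p 0.166 in edgeR's quasi-likelihood test). Ndufs1, the largest core subunit, had the opposite pattern. It was at 129 and 126 CPM against 162 and 163 CPM, with a log2 fold change of 0.35 (SE 0.14), and its unadjusted p of 0.0658 missed 0.05.

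Ndufc1, an accessory subunit, was at 30.3 and 28.4 CPM in the controls and at 7.34 and 17.3 CPM in the Brg1-cKO pair, with a log2 fold change of -1.25 (SE 0.60) and an unadjusted p of 0.106. The accessory subunits with the highest log2 fold change of complex I owed it to 1 library. Ndufs5 was at 20.0 and 23.4 CPM against 11.1 and 69.2 CPM, and Ndufv3 at 38.3 and 39.5 CPM against 11.7 and 96.5 CPM. Without the second Brg1-cKO library their log2 fold changes were -0.99 and -1.75 instead of 0.89 and 0.47.

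Ndufs3, a core subunit, was the only complex I member not tested. It was at 2.66 and 0.104 CPM in the controls and at 0 throughout the Brg1-cKO pair. Of its windows 72.9% occurred in other genes with at most 2 mismatches, mostly in Gm12251, but 28.2% exactly. The part of shared reads in its low count was not tested, and its level is not interpreted.

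Ndufa4 and Ndufa4l2 carry a complex I name, but Ndufa4 is now assigned to complex IV and Ndufa4l2 is a hypoxia-responsive relative. Ndufa4 was at 50.4 and 50.7 CPM in the controls and at 38.4 CPM in each Brg1-cKO library, a log2 fold change of -0.40 (SE 0.25). Ndufa4l2 was at 2.88 and 2.67 CPM and at 0 counts throughout the Brg1-cKO pair. With 3 counts over the group as the floor it was 23.1-fold lower, a bound that covers counting error only. Tested genes under 10 CPM differed between the 2 Brg1-cKO libraries by a median of 5.48 on the log2 scale. Ndufa4l2 overlaps Shmt2 on the opposite strand.

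Complex II, the only complex with no mitochondrial subunit, had 2 members on either side of 0. Sdhb, the iron-sulfur subunit, was at 115 and 109 CPM against 116 and 158 CPM, and Sdha, the flavoprotein, at 252 and 242 CPM against 157 and 226 CPM. Their log2 fold changes were 0.30 (SE 0.22) and -0.36 (SE 0.22). The membrane anchors Sdhc and Sdhd were at 64.8 and 67.5 CPM against 54.9 and 71.1 CPM, and at 77.2 and 77.7 CPM against 69.0 and 203 CPM. None of the 4 had an unadjusted p under 0.05, and the smallest was 0.176, for Sdha.

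The 8 nuclear members of complex III had a median log2 fold change of -0.17. None had an unadjusted p under 0.05. Uqcrc2, a core subunit, was at 103 and 105 CPM in the controls and at 101 and 100 CPM in the Brg1-cKO pair (log2 fold change -0.04, SE 0.17). Uqcrq, the nuclear complex III member with the most counts per kilobase, was at 90.8 and 93.0 CPM against 71.5 and 85.7 CPM (-0.23, SE 0.20). The small subunits Uqcr10 and Uqcr11 stood at the ends of the range, with 28.0 and 34.3 CPM against 32.6 and 63.1 CPM, and 44.6 and 52.0 CPM against 13.8 and 47.7 CPM. Both had groups that overlapped.

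Uqcrc1, the partner of Uqcrc2 in the core of complex III, was counted at 0.922 and 0.830 CPM in the controls and at 0.699 and 0.747 CPM in the Brg1-cKO pair. Per kilobase of transcript that was 0.530 ± 0.0396 CPM (SD, n = 2) in the controls, against 54.8 ± 0.539 for Uqcrc2, and both proteins are known to occur in equal numbers in the complex. None of its windows occurred in another gene. The features that were counted are not given in the sources used here, so its level is not interpreted. Cyc1, the cytochrome c1 of the same complex and not a member by symbol, was at 119 and 113 CPM against 124 and 58.0 CPM.

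Complex IV had 16 nuclear members by symbol, of which 12 were tested, with a median log2 fold change of 0.07. Many of its subunits come as isoform pairs, of which the kidney is known to use the ubiquitous or liver form and heart and muscle the other. Cox6a1, the ubiquitous form, was at 101 and 102 CPM in the controls and at 53.0 and 64.2 CPM in the Brg1-cKO pair. Its log2 fold change was -0.79 (SE 0.21, unadjusted p 0.0190, Benjamini-Hochberg adjusted p 0.167 in edgeR's quasi-likelihood test). The muscle form Cox6a2 was at 0 in every library. A count of 0 allows up to 3 counts, which is 0.0778 CPM in the deepest library.

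Cox7a1, the muscle form of its pair, was at 1.15 and 0.726 CPM in the controls and at 0 counts throughout the Brg1-cKO pair. With 3 counts over the group as the floor it was 7.74-fold lower, a bound that covers counting error only. Cox7a2, the ubiquitous form, was at 51.4 and 56.0 CPM against 45.9 and 70.0 CPM. Cox8a, the ubiquitous form and the nuclear complex IV member with the most counts per kilobase, was at 143 and 146 CPM against 180 and 144 CPM. Its muscle form Cox8b was at 0.140 and 0.0519 CPM in the controls and at 0 counts in the Brg1-cKO pair. Cox8c and Cox7b2, forms known from the testis, had no counts in any library. Cox6b2, also known from the testis, was at 4.61 and 4.90 CPM against 7.97 and 0 CPM, and Cox6b1 at 65.3 and 59.5 CPM against 81.7 and 38.8 CPM. In each pair the ubiquitous form held most of the counts in every library.

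Cox5a, an accessory subunit, was the nuclear complex IV member with the highest log2 fold change, at 55.1 and 59.0 CPM against 69.1 and 108 CPM (0.64, SE 0.30, unadjusted p 0.105). Cox7a2l, which is known as a factor for joining complexes III and IV more than as a subunit, was at 42.8 and 37.1 CPM against 74.7 and 19.5 CPM. Cox6c was at 71.4 and 76.1 CPM against 61.5 and 88.6 CPM. Cox4i1, an early-assembling subunit outside the symbol rule, was at 198 and 189 CPM against 156 and 190 CPM, and its hypoxia-related form Cox4i2 at 3.05 and 2.15 CPM against 0 and 2.34 CPM.

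The 17 nuclear members of complex V were all tested, with a median log2 fold change of 0.03. In 9 of them the log2 fold change was above 0, beside 47% of all genes tested. The catalytic core of complex V held the most abundant nuclear messages of the chain. Atp5a1, the alpha subunit, was at 999 and 962 CPM in the controls and at 964 and 944 CPM in the Brg1-cKO pair, a log2 fold change of -0.04 (SE 0.07). Atp5b, the beta subunit, was at 904 and 899 CPM against 1093 and 849 CPM (0.11, SE 0.15). Per kilobase of transcript, Atp5b stood at 471 ± 1.80 CPM (SD, n = 2) and Atp5a1 at 397 ± 10.5 in the controls, above Cox8a with 263 ± 4.06. All 3 were below mt-Nd4, the lowest of the 7 well counted mitochondrial messages per kilobase.

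The ring subunit c of the ATP synthase is encoded by Atp5g1, Atp5g2 and Atp5g3, which make the same mature protein. Atp5g1 was at 33.9 and 33.5 CPM in the controls and at 14.5 and 15.0 CPM in the Brg1-cKO pair. Its log2 fold change was -1.19 (SE 0.36, unadjusted p 0.0298, Benjamini-Hochberg adjusted p 0.208 in edgeR's quasi-likelihood test). Atp5g3, the most abundant of the family, was at 144 and 163 CPM against 150 and 177 CPM (0.10, SE 0.17). Atp5g2 was at 19.8 and 20.9 CPM against 25.4 and 4.39 CPM. All windows of Atp5g2 and 54.6% of those of Atp5g1 occurred in other genes, mostly in Gm10175 and Gm10039.

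Atp5e, the epsilon subunit, was at 39.6 and 43.7 CPM in the controls and at 85.7 and 45.3 CPM in the Brg1-cKO pair (log2 fold change 0.65, SE 0.40). Atp5l, subunit g of the membrane part, was at 17.8 and 17.2 CPM against 1.68 and 13.3 CPM (-1.23, SE 1.16), and 80.9% of its windows occurred in other genes. Atp5s, a coupling factor B homologue rather than a subunit, was at 3.94 and 8.25 CPM against 13.3 and 4.95 CPM. The groups overlapped in Atp5s but not in Atp5e or Atp5l. In all, 37 of the 82 nuclear members had no window in another gene and 8 had over 50% of them there.

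**Figure D4:**
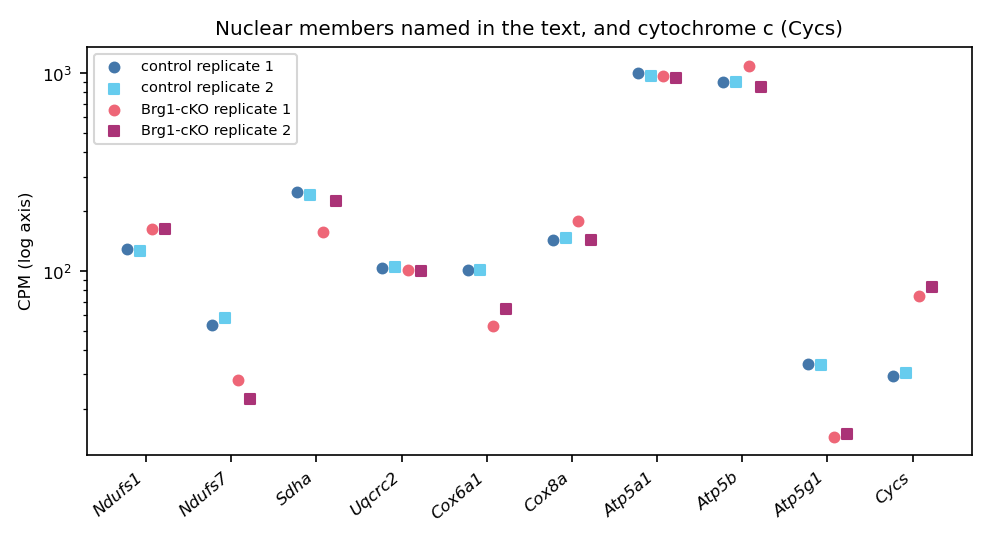
CPM of 9 nuclear members and of cytochrome c (Cycs) in each library, on a log axis. Ndufs7, Cox6a1 and Atp5g1 had both Brg1-cKO points below both controls, Ndufs1 and Cycs had both above, and Atp5a1 lay between 944 and 999 CPM in all 4.

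Cycs, the soluble carrier between complexes III and IV, is not a member. It was at 29.4 and 30.7 CPM in the controls and at 74.7 and 83.3 CPM in the Brg1-cKO pair. The log2 fold change was 1.40 (SE 0.24, unadjusted p 0.00394, Benjamini-Hochberg adjusted p 0.166 in edgeR's quasi-likelihood test), above that of any member tested.

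How far the nuclear members could be compared was limited by the Brg1-cKO pair. The median absolute log2 difference between the 2 controls was 0.0805 over the nuclear members tested, and that between the 2 Brg1-cKO libraries was 0.583. The 7 well counted mitochondrial messages had a median of 0.0815 in the control pair, near that of the nuclear members, and of 0.246 in the Brg1-cKO pair, below theirs. They lay above the 50 tested genes at 1000 CPM or more, whose medians were 0.0366 and 0.162. Among all genes between 30 and 100 CPM the medians were 0.0955 and 0.682, beside 0.0839 and 0.650 for the 39 members in that range.

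**Figure D5:**
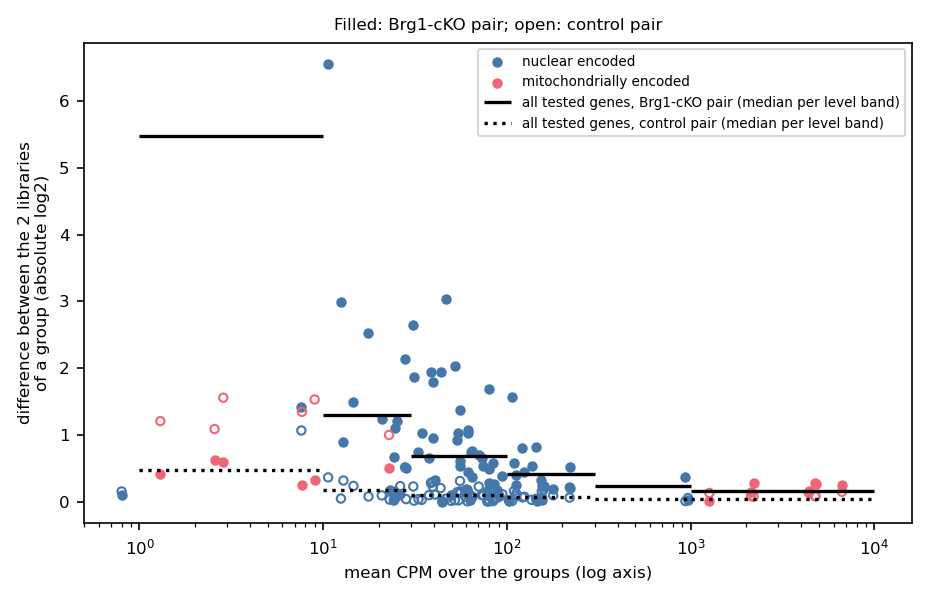
Absolute log2 difference between the 2 libraries of a group for each tested member with counts in both Brg1-cKO libraries. It is drawn against mean CPM on a log axis, with lines for the median of all genes in bands of level. At 30 to 100 CPM the median of the members was 0.650 in the Brg1-cKO pair against 0.0839 in the control pair.

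Promoters of respiratory chain genes are known for sites of NRF1, whose motif is a GC-rich palindrome, and of ETS factors such as GABP. RefSeq promoter windows on GRCm38.p6, 250 bases before to 50 after the start, were matched for 68 of the 82 nuclear members, in 73 windows. The NRF1 motif was searched on both strands as GCGC, then any base, then T, then GCGC. It was in 18 of the 73 windows (24.7%), of 17 members, against 4.60% of all 32851 windows, which include noncoding genes. Its palindromic case, with A as the free base, was in 6.85% against 0.971%. The ETS letters CCGGAAGT were in 6.85% against 3.89%. A match of letters is a description and not a bound site.

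Of the members with an unadjusted p under 0.05, Cox6a1 held matches to this NRF1 motif, and the windows of Ndufs7, Atp5g1 and Cox7a1 held none. The 250 bases before the start of Cox6a1 (GRCm38.p6, chr5:115348959-115349208, minus strand) are shown 5′ to 3′ with both matches in capitals, the second of them read from the other strand.
Cox6a1: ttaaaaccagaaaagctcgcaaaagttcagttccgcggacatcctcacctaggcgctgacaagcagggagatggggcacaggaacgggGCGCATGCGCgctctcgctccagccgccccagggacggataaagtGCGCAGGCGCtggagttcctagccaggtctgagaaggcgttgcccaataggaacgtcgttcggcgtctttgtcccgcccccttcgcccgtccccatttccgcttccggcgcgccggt
Nrf1 itself was at 88.3 and 84.0 CPM in the controls and at 67.4 and 54.8 CPM in the Brg1-cKO pair, with a log2 fold change of -0.50 (SE 0.22) and an unadjusted p of 0.0880. Gabpb1, the partner of the ETS factor GABPA, was at 62.6 and 62.9 CPM against 32.0 and 40.5 CPM. Its log2 fold change was -0.79 (SE 0.27, unadjusted p 0.0405 in edgeR's quasi-likelihood test). It was the 1 gene of 11 biogenesis regulators tested with an unadjusted p under 0.05, beside 12.9% of all genes lower at that threshold. Ppargc1a, the coactivator known to drive mitochondrial biogenesis, was at 11.7 and 8.69 CPM against 18.03 and 27.6 CPM (1.16, SE 0.56, unadjusted p 0.107).

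Genes that serve the chain were read from lists by role. In these lists edgeR's quasi-likelihood test gave no adjusted p under 0.05, so the counts below are at an unadjusted p under 0.05, against the background of 5.44% higher and 12.9% lower. Of 25 genes of mitochondrial DNA maintenance and transcription tested, 2 were higher and 1 lower. Polrmt, the mitochondrial RNA polymerase, was at 53.7 and 58.6 CPM against 91.8 and 94.1 CPM (log2 fold change 0.73, SE 0.20), and Tefm, its elongation factor, at 5.90 and 6.56 CPM against 28.2 and 23.4 CPM (2.05, SE 0.53). Fastkd2, an RNA-binding protein of the mitochondrial RNA granule, was at 27.9 and 25.9 CPM against 7.76 and 8.78 CPM (-1.70, SE 0.49). Tfam, which packages mitochondrial DNA, was at 61.9 and 54.7 CPM against 34.8 and 53.8 CPM (-0.40, SE 0.33).

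Of 76 mitochondrial ribosomal proteins tested, 7 were higher and 1 lower, with a median log2 fold change of -0.01. Mrpl54 was at 47.5 and 43.9 CPM against 104 and 108 CPM, and Mrps14 at 24.6 and 27.9 CPM against 73.9 and 63.1 CPM. Mrpl16 was at 22.9 and 18.6 CPM against 4.75 and 5.04 CPM. Of 77 cytosolic ribosomal proteins 1 was higher and 8 lower, with a median of -0.09.

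Of 43 assembly factors 1 was higher, Ecsit of complex I assembly, at 28.6 and 24.4 CPM against 53.4 and 63.1 CPM, and none was lower. The median log2 fold change of this list was 0.10. Of 23 import genes 1 was higher and 3 lower. None of 14 citrate cycle genes or 15 antioxidant enzymes was on either side, and both lists had a median of 0.07.

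Markers of other cells moved with the groups too. All 9 podocyte markers were above both controls in each Brg1-cKO library, with a summed level of 885 to 897 CPM in the controls and 3015 to 3352 CPM in the Brg1-cKO pair, and so were 5 of 8 early nephron markers, with sums from 1309 to 1310.2 CPM to 2108 to 2313 CPM. Beside these counts, 17.5% of all genes tested lay above both controls and 34.5% below both. The early nephron markers Fgf8 and Dll1 lay below both controls, with log2 fold changes of -1.11 and -0.33. All 8 stroma and all 7 endothelium markers were lower, at 2656 to 2698 CPM against 1187 to 1333 CPM and at 581 to 588 CPM against 172 to 282 CPM. Of them Ren1 was at 0 throughout the Brg1-cKO pair. Lower as well were 6 of 7 tested ureteric bud markers, at 174 to 175 CPM against 38.4 to 47.0 CPM with Calb1, Wnt9b and Wnt7b at 0 throughout the Brg1-cKO pair. So were 6 of 7 immune markers, at 128 to 131 CPM against 26.7 to 57.0 CPM with C1qa at 0 there. Ren1, Calb1, Wnt9b, Wnt7b and C1qa passed the filter on low counts through the controls alone. Their direction was fixed by that filter, so they support no count of lower markers. Nephron progenitor markers, the cells that the study's title names, summed to 1116 to 1135 CPM against 1179 to 1222 CPM. The sum hides opposite directions: of these 8 markers 2 lay above both controls and 2 below both. Their log2 fold changes ran from -1.04 to 0.86, with 4 above 0 and 4 below. The part of cell makeup in the values of the respiratory chain was not tested.

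Markers of the tubule segments known for dense mitochondria were low. The 9 proximal tubule markers summed to 107 to 110 CPM in the controls and 109 to 145 CPM in the Brg1-cKO pair. Slc27a2 was at 0 in the latter. Of the 8 tested, 5 had a log2 fold change above 0 and 3 below, from -1.38 to 3.59. The 5 markers of thick limb and distal tubule summed to 67.6 to 70.2 CPM against 70.7 to 175 CPM, with Umod and Pvalb at 0 in the Brg1-cKO pair. Of these 5, 1 was at 0 in both controls, and only 2 were tested. The log2 fold changes of these 2 were -0.23 and 3.83. Muscle markers summed to 8.69 to 20.1 CPM over all libraries, with Myh6, Ckm and Mb at 0 in the Brg1-cKO pair. Of the 4 muscle markers tested, 2 had a log2 fold change above 0 and 2 below, from -6.69 to 3.68. Erythroid markers summed to at most 0.934 CPM.

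Of the 3 X-linked members, Ndufa1, an accessory subunit of complex I, was at 14.6 and 18.1 CPM in the controls and at 6.57 and 12.2 CPM in the Brg1-cKO pair (log2 fold change -0.80, SE 0.67). Ndufb11, of the membrane arm, was at 88.6 and 94.5 CPM against 92.1 and 87.0 CPM (-0.03, SE 0.18). Cox7b, of complex IV, was at 100.4 and 109 CPM against 73.3 and 95.5 CPM (-0.31, SE 0.22). None had an unadjusted p under 0.05.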

How the data were processed

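The authors deposited whole-number counts of reads per gene, 1 table per library. Per the labels, the kit kept strand and primed bead-purified mRNA at random, and reads came from 1 end. Per the submitters' processing notes, mm10, TopHat and DESeq2 were used. Versions, annotation, strand setting and counter are not given in the sources used here. Reads that no gene received (32.4% and 31.8% of the control reads, 65.5% and 72.1% of the Brg1-cKO reads) entered neither library sizes nor tests. Symbols and positions came from GENCODE M21, which held 52403 of 52636 identifiers.

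Genes passing filterByExpr (minimum count 10) were fitted in edgeR 4.0.16 (R 4.3.3) with TMM scaling and the quasi-likelihood F test, and p was adjusted by Benjamini-Hochberg over 18172 genes, with a threshold of 0.05. The fit was tested on simulated data, where a pass was required only with the spread of the controls in both groups. In the real data the median absolute log2 difference over all genes tested was 0.172 in the control pair and 1.17 in the Brg1-cKO pair. Untested members were Ndufs3, Cox8b, Cox6a2, Cox8c and Cox7b2. DESeq2 1.42.0, limma-voom (limma 3.58.1), other scalings and filters, a replicate block and leaving out each library were alternatives.

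The members and lists were chosen with earlier results of these data known. Named were all mitochondrial members, in each nuclear complex the 2 highest and 2 lowest by log2 fold change and the highest per kilobase, and the isoform families. 1 gene that this rule names is not reported here. Ndufs7, Ndufs1, Ndufs3, Uqcrc1, Uqcrc2, Atp5a1, the X-linked members and single list genes were named after their values were seen.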

Additional observations from a re-analysis of the deposited data

How the results depend on the processing

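The 7 well counted mitochondrial members kept a log2 fold change above 0 in all 13 fits, including the main one. Every fit scaled libraries by gene counts, so the fits could not test the choice of denominator. Of all uniquely aligned reads, the share of the mitochondrial members was lower in the Brg1-cKO pair. With 2 libraries a group, the large spread of the Brg1-cKO pair limits what can be called, and depth limits members near 0.

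Members called at an adjusted p under 0.05 rose from 0 to 12 in DESeq2 and 2 in limma-voom, and ranged from 0 to 58 when 1 library was left out. Over all genes the counts were 0, 2027, 327, and 16 to 13262. The libraries that decide this are the Brg1-cKO ones: without the first, 53 members and 12315 genes were called, and without the second, 58 and 13262. A lone library is then assumed to vary like the controls. No other scaling or filter gave a call.

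With the replicate block, 6 members and 156 genes were called. Same-numbered libraries share only a number: their deviations correlated at -0.0164. The block medians were -0.15 (nuclear), -0.29 (complex I) and -0.020 (complex V).

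The nuclear median was -0.021 in DESeq2, -0.12 in limma-voom, -0.019 with RLE factors, -0.12 with total counts, -0.11 with no filter and -0.035 with a filter of 10 CPM. For complex I it was -0.31 in limma-voom. For complex III it was -0.12 in DESeq2, -0.12 with RLE factors, -0.095 with the 10 CPM filter and -0.23 over members with no shared window, an alternative chosen after seeing the data. For complex V, in order, it was 0.080 in DESeq2, -0.035 in limma-voom, 0.080 with RLE factors, -0.015 with total counts, -0.010 with no filter and 0.096 over members with no shared window. Leaving out 1 library gave -0.18 to -0.087 (nuclear), -0.43 to -0.12 (complex I), -0.22 to -0.10 (III), -0.42 to 0.26 (IV) and -0.083 to 0.036 (V).

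Of uniquely aligned reads, the Brg1-cKO mean share was 1.32% for mitochondrial members (a difference of -0.469 percentage points instead of 0.755) and 0.302% for nuclear members (-0.271). Of gene counts off the mitochondrial chromosome, the nuclear share was 0.6998%. The cause of these shifts was not tested.

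Of 90 members, 74 kept the direction of their log2 fold change without Brg1-cKO replicate 1 and 69 without replicate 2, and at least 82 of 90 in the other settings except the 10 CPM filter (80 of 80). Among the named members that turned, log2 fold changes ranged from -1.06 to 0.88 for Cox7a2l and -0.11 to 0.26 for Atp5b, negative without replicate 1. They ranged from -0.99 to 1.65 for Ndufs5, -1.75 to 1.28 for Ndufv3, -0.38 to 0.41 for Uqcrfs1 and -0.28 to 0.24 for Cox6c, negative without replicate 2, as was Sdhd with -0.19 (1.36 without replicate 1), and from -0.71 to 0.37 for Cox6b1, positive without replicate 2.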
